A study of Mus musculus with 416 samples.

Results

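The distal ends of the 19 mouse autosomes were described here, that is, the stretch of each chromosome that lies within 3 Mb of its telomere-side limit. An end was the set of 50-kb bins whose position lay within 3 Mb of the last bin measured in at least 10 cells of all 6 groups. Each autosome gave 61 bins by this rule, so the 19 ends held 1159 of the 46015 autosomal bins used, out of 49264 in the tables. The choice used position and coverage only, not replication state.

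Each cell was a blastomere taken from an embryo of the cross (C57BL/6J xCBA) x DBA/2J, and the tables give its replication state along the genome. Zygotes received an injection of 20 µM siRif1, which targets Rif1, or of 20 µM siControl (siCont here), at 17 to 18 h after hCG, and were grown in KSOM medium to the 4-cell, 8-cell or morula stage. Every group had therefore been injected with an siRNA, and there was no uninjected group. Embryos were collected at several times so as to sample the S phase of each stage, and each blastomere was amplified with its own barcode. The tables used here held 51 siRif1 and 49 siCont cells at the 4-cell stage, 50 siRif1 and 60 siCont cells at the 8-cell stage, and 45 siRif1 and 44 siCont cells at the morula stage. The labels listed 416 cells in all, of which 299 had a column. No label named an embryo, litter or batch, so each group counted as 1 sample. No test between groups was therefore possible, and every difference below is a description of these cells, without a p-value. The amount of Rif1 RNA or protein was not measured in these files, so the depletion itself could not be checked.

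RIF1 is a chromosome-binding protein that brings protein phosphatase 1 to replication origins and counteracts their activation, and it is known in mammals as a regulator of the order in which the genome replicates. It was first found in budding yeast as a partner of the telomere protein Rap1, and in yeast it delays replication near telomeres. Mouse chromosomes have their centromere at the proximal end, so the distal end is the telomere that lies away from it. Subtelomeric regions differ widely in gene content, from dense clusters of housekeeping genes to deserts and arrays of sensory receptor genes.

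The range of sequence context at the ends is shown by the promoters of 5 genes, 300 bases each, from 250 bases before to 50 bases after an annotated transcript start, in the RefSeq annotation of GRCm38.p6. For Macc1 and Adcyap1 that transcript starts inside the span the annotation gives the gene. P4hb encodes protein disulfide isomerase and lay in the bin with the lowest 8-cell difference of all end bins (chr11:120573204-120573503, minus strand). The other promoters belong to the genes nearest the limit of ends with low or high 8-cell differences between siRif1 and siCont, while the end with the highest difference is not shown. Ttll10, a member of the tubulin tyrosine ligase-like family (chr4:156050768-156051067, minus strand), and Gm9631, a predicted gene (chr11:121925279-121925578, minus strand), come from the low ends of chromosomes 4 and 11. Macc1 (chr12:119443160-119443459, plus strand) and Adcyap1, which encodes the neuropeptide PACAP (chr17:93198767-93199066, plus strand), come from the high ends of chromosomes 12 and 17. Capitals mark CG dinucleotides, of which P4hb had 31, Ttll10 had 1, Gm9631 had 9, Macc1 had 2 and Adcyap1 had 7.
P4hb: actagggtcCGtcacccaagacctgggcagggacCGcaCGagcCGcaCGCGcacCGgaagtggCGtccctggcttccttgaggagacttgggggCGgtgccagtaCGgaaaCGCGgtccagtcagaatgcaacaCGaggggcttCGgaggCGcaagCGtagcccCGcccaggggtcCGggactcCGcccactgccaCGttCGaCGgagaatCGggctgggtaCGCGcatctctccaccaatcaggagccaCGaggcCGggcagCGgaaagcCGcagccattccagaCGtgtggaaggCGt
Ttll10: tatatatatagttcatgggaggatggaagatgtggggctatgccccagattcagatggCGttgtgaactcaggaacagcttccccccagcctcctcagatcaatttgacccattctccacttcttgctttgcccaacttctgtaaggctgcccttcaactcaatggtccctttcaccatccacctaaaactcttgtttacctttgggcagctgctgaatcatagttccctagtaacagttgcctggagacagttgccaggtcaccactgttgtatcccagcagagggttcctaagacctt
Gm9631: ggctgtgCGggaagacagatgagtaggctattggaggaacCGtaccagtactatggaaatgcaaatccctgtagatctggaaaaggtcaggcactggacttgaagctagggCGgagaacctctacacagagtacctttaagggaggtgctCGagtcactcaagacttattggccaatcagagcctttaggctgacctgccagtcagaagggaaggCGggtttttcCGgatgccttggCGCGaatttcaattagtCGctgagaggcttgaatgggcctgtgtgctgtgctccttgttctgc
Macc1: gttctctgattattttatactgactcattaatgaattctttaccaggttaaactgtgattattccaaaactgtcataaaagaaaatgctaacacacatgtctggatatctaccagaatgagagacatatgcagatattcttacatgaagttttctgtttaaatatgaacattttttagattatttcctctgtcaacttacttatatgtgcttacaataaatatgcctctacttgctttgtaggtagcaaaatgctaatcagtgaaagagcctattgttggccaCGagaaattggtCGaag
Adcyap1: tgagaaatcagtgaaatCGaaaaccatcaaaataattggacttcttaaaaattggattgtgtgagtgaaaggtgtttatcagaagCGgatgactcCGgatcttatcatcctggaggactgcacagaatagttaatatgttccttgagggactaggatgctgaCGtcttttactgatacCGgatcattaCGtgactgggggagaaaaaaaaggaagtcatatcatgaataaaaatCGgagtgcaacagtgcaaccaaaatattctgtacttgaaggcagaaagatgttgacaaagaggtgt

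The P4hb promoter had the most CG dinucleotides of the 5, and it lies in a 1-Mb stretch with 45 protein-coding genes. The Ttll10 promoter had the fewest. Its gene, placed by its midpoint, is in a 1-Mb stretch with 39, but the promoter window itself lies just beyond the limit of the end. Over all 678 promoters that the table held for protein-coding genes of the ends, the median CG number was 17, against 15 over the 18960 promoters of all measured autosomal genes. The telomere repeat unit was searched as TTAGGG or CCCTAA, so that both strands were covered. It occurred in 10.9% of the end promoters and in 10.5% of all promoters, and in none of the 5 printed. The promoter windows of the ends thus held this unit about as often as promoters elsewhere.

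In the tables each bin of each cell has the state 0, 1 or NA. State 1 was read as replicated, because gene-rich bins held it in more cells. The replicated share of a bin is the percent of measured cells in state 1. The median cell had 51.4% of its bins replicated in siRif1 and 43.02% in siCont at the 4-cell stage, 43.4% in siRif1 and 48.5% in siCont at the 8-cell stage, and 47.04% in siRif1 and 47.6% in siCont at the morula stage. Because the groups differed in this way, each share was centred on its group's mean over all used bins and is given in percentage points. A negative centred share marks a bin that fewer cells had replicated than the average bin, that is, a late bin. The shift is the centred share in siRif1 minus that in siCont, and a negative shift means relatively later in siRif1. Centring on the median bin in place of the mean would move every shift of a stage by the same amount, by -2.17 points at the 4-cell stage, 2.63 points at the 8-cell stage and 4.02 points at the morula stage, so small shifts have no fixed sign. Every end bin was measured in at least 42 cells of each group, and no pair of cells had identical states. Neighbouring bins are not independent, since adjoining bins often share a state.

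The ends replicated later than the genome average in 4-cell embryos, and this held with either siRNA. The mean centred share of the 19 ends was -8.51 points in siRif1 (SD over ends 8.45) and -8.18 points in siCont (SD over ends 7.94), and 17 ends in siRif1 and 15 in siCont were negative. At the 8-cell stage it was -3.27 points in siRif1 (SD 9.19) and -4.69 points in siCont (SD 11.2), with 13 negative ends in each. At the morula stage it was -0.983 points in siRif1 (SD 11.4) and 0.410 points in siCont (SD 16.8), with 8 and 9 negative ends in siRif1 and siCont. The centromere-proximal 3 Mb of the same chromosomes did not share the low 4-cell value, with a mean of 1.33 points in siRif1 and -0.773 points in siCont. The stretch next to the ends, 3 to 5 Mb from the limit, did share it. Its 4-cell mean was -7.68 points in siRif1 and -4.55 points in siCont, so the low value was not confined to the ends.

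**Figure D1:**
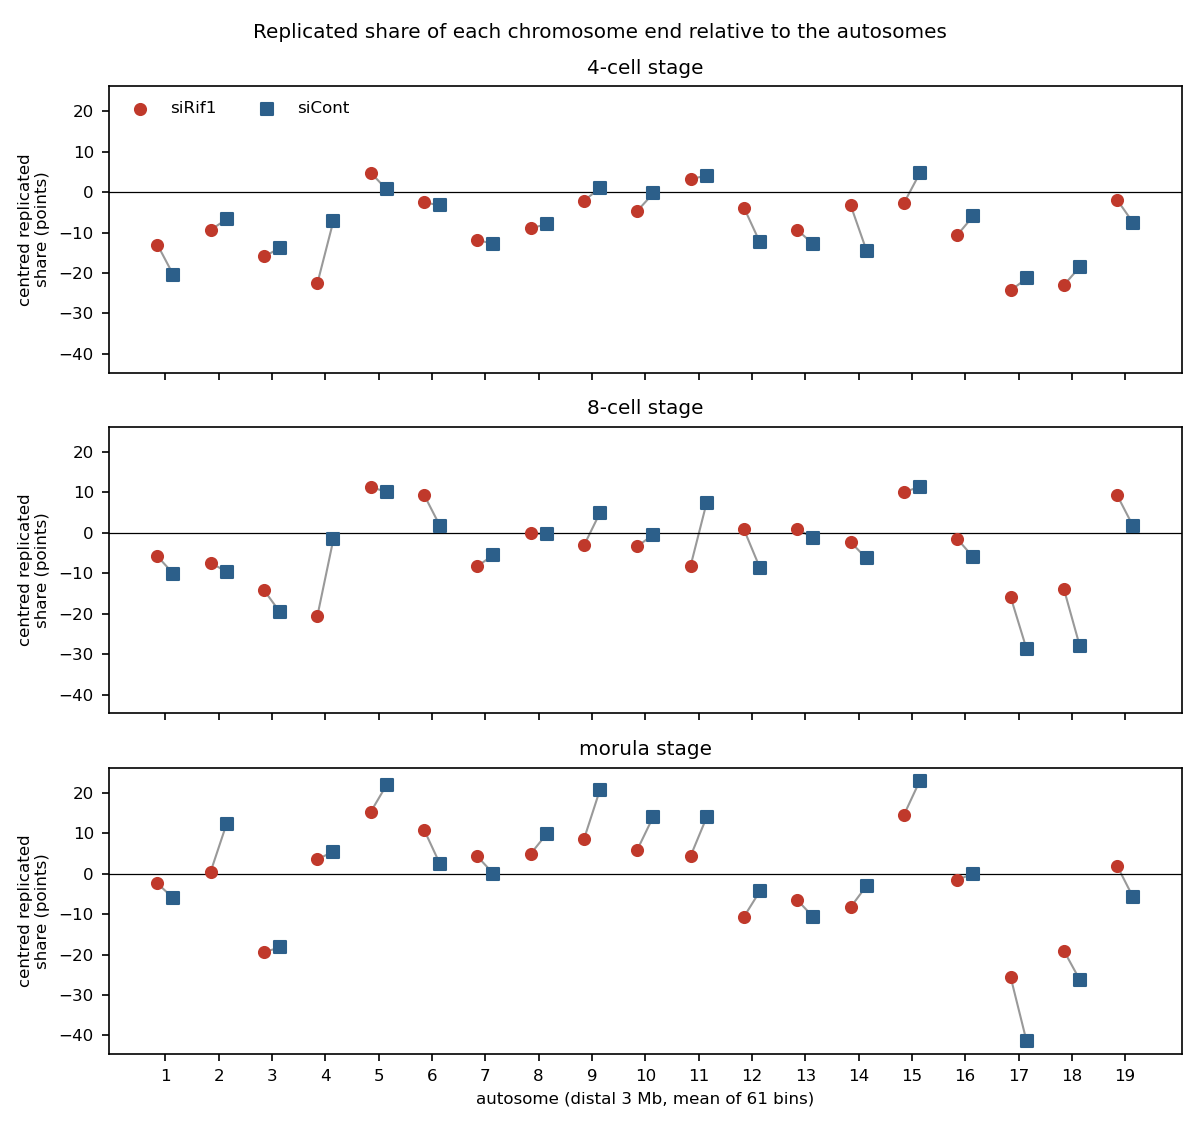
Centred replicated share (percentage points, vertical axis) of the distal 3 Mb of each autosome (horizontal axis) at the 3 stages, with siRif1 as red circles and siCont as blue squares. The ends of chromosomes 17 and 18 lie at -13.9 points or lower in all 6 groups, and the ends of chromosomes 4 and 11 show the widest negative gaps between siRif1 and siCont at the 8-cell stage.

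The ends had higher centred shares in morulae than in 4-cell embryos in both treatments, by an amount that depended on the setting. The change of the mean centred share, morula minus 4-cell, was 7.53 points in siRif1 (SD over ends 8.45) and 8.59 points in siCont (SD over ends 10.7). It was positive at 15 of 19 ends in siRif1 and at 16 of 19 in siCont. The rest of the autosomes changed by -0.173 points in siRif1 and -0.343 points in siCont. But that part holds 43716 of the 46015 used bins, so centring leaves it little room to change. Between 5 and 10 Mb from the limit the centred share went from -3.35 to 5.81 points in siRif1. In siCont it went there from -1.86 to 10.1 points, so a rise was not particular to the ends. The centromere-proximal 3 Mb changed by -1.01 points in siRif1 and 4.41 points in siCont. For the ends in siRif1 the change was 2.70 points when cells were balanced over S phase and 2.77 points for 1 Mb ends. For the ends in siCont it was 1.79 points with median centring and 1.97 points for 1 Mb ends. On percentile ranks it was 14.8 points in siRif1 and 15.5 points in siCont. The most upward change was that of chromosome 4 in siRif1, 26.2 points, and that of chromosome 5 in siCont, 21.3 points. The chromosome 17 end changed by -1.17 points in siRif1 and by -20.03 points in siCont, the most downward change in siCont.

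The ends differed widely among themselves. The chromosome 17 end, whose only protein-coding gene is Adcyap1, was the lowest in 5 of the 6 groups. Its replicated share was 26.1% of cells in siRif1 and 25.2% in siCont at the 4-cell stage, 27.2% in siRif1 and 20.5% in siCont at the 8-cell stage, and 24.5% in siRif1 and 8.01% in siCont at the morula stage. In siRif1 the end of chromosome 5 was the highest at every stage, with shares of 55.3%, 54.4% and 65.2% at the 4-cell, 8-cell and morula stages. In siCont it was the end of chromosome 15, with 91 protein-coding genes and shares of 51.3%, 60.6% and 72.4%. Between the 4-cell and morula centred shares of the 19 ends r was 0.68 in siRif1 and 0.87 in siCont. The points share their chromosome and gene content, and no p-value is given.

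At the 4-cell stage the ends had no common shift. The mean over the 19 ends was -0.331 points (SD over ends 6.25), and 11 ends were negative, while 50.6% of 707 windows of 61 used bins elsewhere on the autosomes were negative. The mean turned positive in 4 of 11 alternative settings. The lowest shifts were at the ends of chromosomes 4, 15 and 16. The chromosome 4 end had a replicated share of 27.9% in siRif1 and 39.3% in siCont, a shift of -15.4 points, and all 61 of its bins were negative. Most of its bins were unreplicated in most cells of either group. More than 50% of its measured bins were replicated in 9 of 51 siRif1 cells (17.6%, exact 95% interval 8.40 to 30.9) and in 17 of 49 siCont cells (34.7%, interval 21.7 to 49.6). Such intervals (Clopper-Pearson) take in counting error alone, not embryos that cells may share, and here they overlap. Such counts are not centred, and the mean share over used bins was 50.5% in siRif1 and 46.5% in siCont at this stage. The chromosome 15 end had 47.7% in siRif1 and 51.3% in siCont, a shift of -7.44 points, and the chromosome 16 end 39.8% in siRif1 and 40.6% in siCont, a shift of -4.70 points.

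The highest 4-cell shift was that of the chromosome 14 end, where the replicated share was 47.3% in siRif1 and 32.1% in siCont, a shift of 11.3 points. More than 50% of its bins were replicated in 25 of 51 siRif1 cells (49.02%, interval 34.8 to 63.4) and in 9 of 49 siCont cells (18.4%, interval 8.76 to 32.02). These intervals do not overlap, but the counts are not centred and this end was picked from 19 for its difference. The gain lay in its inner part: the shift was 20.9 points between 1 and 2 Mb from the limit, 15.9 points between 2 and 3 Mb, and -3.21 points in the last 1 Mb. Tmtc4, an O-mannosyltransferase gene in the inner part, was replicated in 26 of 51 siRif1 cells and 8 of 49 siCont cells. Fgf14, a gene of the fibroblast growth factor homologous factors near the limit, was replicated in 7 of 51 siRif1 cells and 11 of 49 siCont cells. The chromosome 12 end had shares of 46.6% in siRif1 and 34.1% in siCont, a shift of 8.57 points, and the chromosome 1 end 37.5% in siRif1 and 26.1% in siCont, a shift of 7.503 points. The chromosome 12 shift was 0.244 points when cells were balanced over S phase, and in siRif1 and siCont cells paired by percent replicated the chromosome 1 shift was -0.735 points.

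The remaining 13 ends had 4-cell shifts between -4.54 points, at chromosome 18, and 5.65 points, at chromosome 19. Chromosomes 10, 9, 17, 2, 3, 8 and 11 had -4.35, -3.08, -2.98, -2.65, -2.05, -0.894 and -0.729 points. Chromosomes 6, 7, 13 and 5 had 0.753, 0.998, 3.61 and 4.13 points. Over the windows elsewhere the SD of the shift was 5.98 points and the lowest and highest 2.5% lay below -11.6 and above 11.9 points, so the chromosome 4 end was the only end outside that range. The sign of the 4-cell shift was the same under 5 alternative settings for cells and scale at 8 of the 19 ends, which included chromosomes 4, 14, 15, 16 and 12.

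The 8-cell shifts of the ends ran in both directions, with the widest negative values at chromosomes 4 and 11. The mean shift was 1.42 points (SD over ends 8.57), and 6 of 19 ends were negative, against 46.4% of the windows elsewhere. The number of negative ends was 9 with cells balanced over S phase, in matched pairs of cells and for 5 Mb ends, and 5 on percentile ranks and with median centring. The mean lay between -1.16 and 4.38 points over 11 alternative settings, with a negative sign in 3 of them. The spread over the windows elsewhere was 9.68 points (SD), and no end lay outside their central 95%, which ran from -21.8 to 16.1 points.

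The end of chromosome 4 was again the lowest. Its replicated share was 22.4% in siRif1 and 47.6% in siCont, a shift of -19.0 points, and all 61 bins were negative, while the rest of chromosome 4 shifted by -2.65 points. More than 50% of its bins were replicated in 9 of 50 siRif1 cells (18.0%, interval 8.58 to 31.4) and in 27 of 60 siCont cells (45%, interval 32.1 to 58.4), and these intervals do not overlap. The shift was -28.6 points in the last 1 Mb, which holds 39 of the 60 genes of this end, -17.0 points between 1 and 2 Mb, and -11.6 points between 2 and 3 Mb. It thus was largest in size next to the limit and in the most gene-dense part. Ttll10, nearest the limit, was replicated in 18 of 50 siRif1 cells and 43 of 60 siCont cells. Cdk11b, a cyclin-dependent kinase gene, was replicated in 15 of 50 siRif1 cells and 40 of 60 siCont cells. Gnb1, a G protein beta subunit gene, was at 15 of 50 siRif1 cells and 39 of 60 siCont cells, and Prdm16, a zinc finger transcription factor gene of brown fat farther inside, at 7 of 50 siRif1 cells and 22 of 60 siCont cells. Genes in the same or neighbouring bins share their calls and are not separate observations. Across the 5 alternative settings the shift of this end ran from -34.7 points, on percentile ranks, to -16.3 points, with median centring.

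The end of chromosome 11 had a replicated share of 34.9% in siRif1 and 56.6% in siCont, a shift of -15.6 points, beside -7.85 points on the rest of that chromosome. More than 50% of its bins were replicated in 13 of 49 siRif1 cells (26.5%, interval 14.9 to 41.1) and in 35 of 60 siCont cells (58.3%, interval 44.9 to 70.9), and these intervals do not overlap. The low ends of chromosomes 4 and 11 were picked from 19 for their difference, and their counts of cells are not centred. Here the low stretch lay inside the end, with -24.0 points between 1 and 2 Mb and -20.5 points between 2 and 3 Mb, but -1.96 points in the last 1 Mb. P4hb was replicated in 12 of 49 siRif1 cells and 39 of 60 siCont cells, the lowest shift of any named gene at -34.3 points. Aspscr1, which encodes a tether of the glucose transporter GLUT4, was at 14 of 49 siRif1 cells and 40 of 60 siCont cells, and Rptor, a subunit of the mTORC1 kinase complex, at 21 of 49 siRif1 cells and 41 of 60 siCont cells. At the limit Gm9631 was at 7 of 49 siRif1 cells and 7 of 60 siCont cells, late in both. The chromosome 9 end followed with 39.9% in siRif1 and 54.2% in siCont, a shift of -8.07 points.

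The highest 8-cell shifts were at the gene-poor ends of chromosomes 18, 17 and 12. This order depended on the scale. On percentile ranks chromosomes 19 and 6, whose ends hold 26 and 23 protein-coding genes, came first with 18.4 and 18.2 points. Chromosome 12 followed with 16.3 points, and chromosomes 18 and 17 were lower. The chromosome 18 end had a share of 29.1% in siRif1 and 21.1% in siCont, a shift of 14.2 points, and the chromosome 17 end 27.2% in siRif1 and 20.5% in siCont, a shift of 12.9 points. All 61 bins were positive at both. In absolute terms both ends were late in both groups: more than 50% of the bins were replicated in 13 of 50 siRif1 cells and 9 of 60 siCont cells at chromosome 18, and in 12 of 50 siRif1 cells and 9 of 60 siCont cells at chromosome 17. The intervals overlap, 14.6 to 40.3% in siRif1 against 7.10 to 26.6% in siCont at chromosome 18, and 13.1 to 38.2% in siRif1 against 7.10 to 26.6% in siCont at chromosome 17. Adcyap1 was replicated in 16 of 50 siRif1 cells and 11 of 60 siCont cells, and Dok6, an adaptor protein gene at the chromosome 18 end, in 10 of 50 siRif1 cells and 12 of 60 siCont cells. Dok6 thus had the same share of 20% in both groups, and its shift of 6.18 points is the difference between the group means used for centring. The chromosome 12 end had 43.9% in siRif1 and 40.5% in siCont, a shift of 9.50 points.

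**Figure D2:**
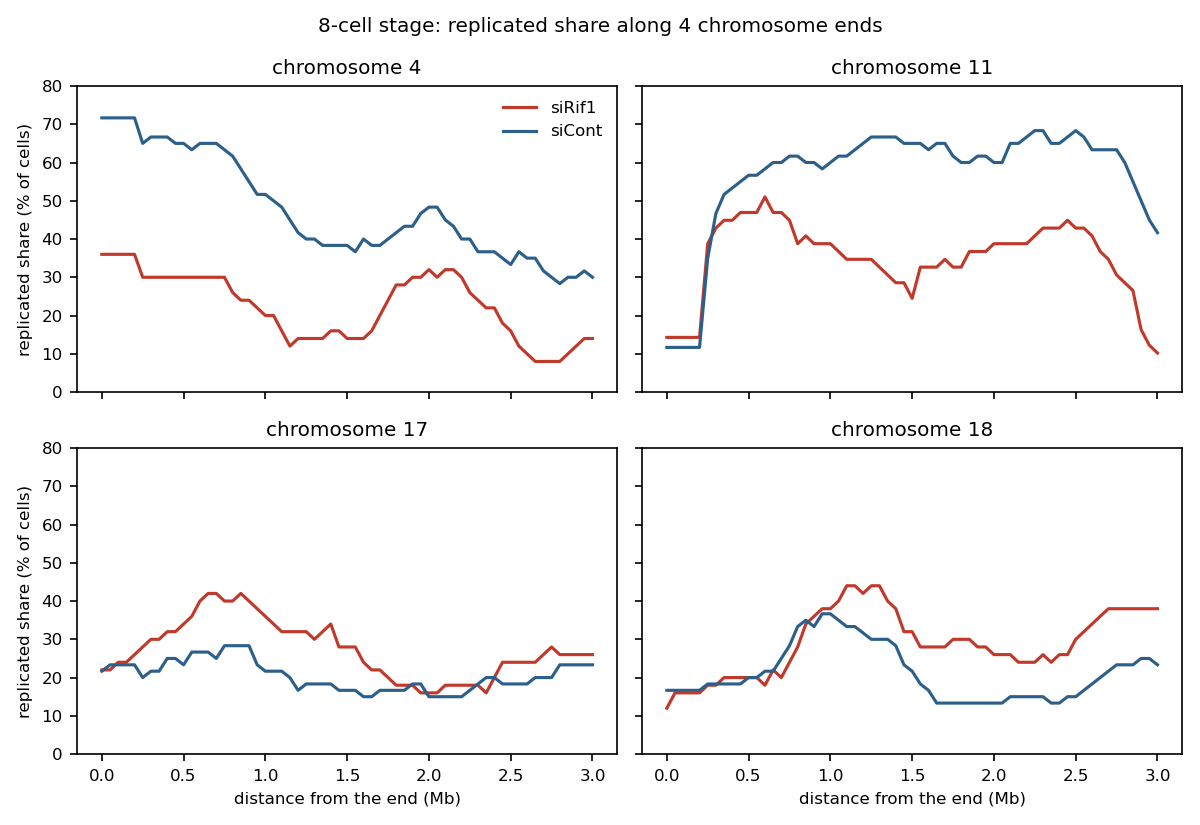
Replicated share (percent of measured cells, vertical axis) along the ends of chromosomes 4, 11, 17 and 18 at the 8-cell stage, against distance from the limit (Mb, horizontal axis), for siRif1 in red and siCont in blue. The siRif1 line runs below siCont over all of chromosome 4 and over the inner part of chromosome 11, and it lies near or above siCont at the late ends of chromosomes 17 and 18.

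The remaining 13 ends had 8-cell shifts between -2.91 points, at chromosome 10, and 7.71 points, at chromosome 6. Chromosomes 7 and 15 had -2.80 and -1.34 points. Chromosomes 8, 5, 2, 13, 14, 1, 16, 3 and 19 had 0.339, 1.28, 2.20, 2.40, 4.07, 4.33, 4.53, 5.44 and 7.65 points. The sign was kept under the 5 alternative settings at 12 of 19 ends, chromosomes 4, 9, 10, 11, 12, 17 and 18 among them.

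At the morula stage the mean shift of the ends was -1.39 points (SD over ends 7.87), and 12 of 19 ends were negative, against 50.6% of the windows elsewhere. Its range over 11 alternative settings, from -5.49 points when cells were balanced over S phase to 2.63 points with median centring, spanned 0. No end lay outside the central 95% of the windows elsewhere, from -16.5 to 18.1 points (SD of the windows 9.03). The lowest ends were those of chromosomes 9, 2 and 11, all gene-rich. On percentile ranks the lowest were those of chromosomes 14, 2 and 12, at -11.8, -11.4 and -11.3 points. The ends of chromosomes 14 and 12 hold only 17 and 10 protein-coding genes. The chromosome 9 end had a share of 58.5% in siRif1 and 70.1% in siCont, a shift of -12.2 points. More than 50% of its bins were replicated in 27 of 45 siRif1 cells (60%, interval 44.3 to 74.3) and in 33 of 44 siCont cells (75%, interval 59.7 to 86.8), which overlap. Limd1, a LIM domain scaffold gene, was replicated in 22 of 45 siRif1 cells and 34 of 44 siCont cells, and Sacm1l, a phosphoinositide phosphatase gene beside it, in 20 of 45 siRif1 cells and 32 of 44 siCont cells.

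The chromosome 2 end had a morula share of 50.5% in siRif1 and 61.8% in siCont, a shift of -11.9 points, and the chromosome 11 end 54.4% in siRif1 and 63.3% in siCont, a shift of -9.53 points. The chromosome 4 end, lowest at both earlier stages, had 53.6% in siRif1 and 54.8% in siCont, a shift of -1.84 points, with more than 50% of its bins replicated in 25 of 45 siRif1 cells and 25 of 44 siCont cells. Averaged over its 3 Mb, the difference at the 4-cell and 8-cell stages was thus not seen in morulae. By part, the morula shift was -7.64 points in the last 1 Mb, 3.68 points between 1 and 2 Mb, and -1.58 points between 2 and 3 Mb. The last 1 Mb thus kept a smaller negative shift. Whether the stages differ was not tested, since each group counts as 1 sample.

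The highest morula shift was that of chromosome 17, with a share of 24.5% in siRif1 and 8.01% in siCont, a shift of 15.9 points and 0 negative bins. More than 50% of its bins were replicated in 10 of 45 siRif1 cells (22.2%, interval 11.2 to 37.1) and in 2 of 44 siCont cells (4.55%, interval 0.555 to 15.5). This end was the latest of all in siCont morulae, and its intervals overlap. On percentile ranks the chromosome 17 shift fell to 3.17 points. Chromosomes 6 and 19 ranked highest there, with 20.4 and 11.7 points. Balancing the cells over S phase gave 11.7 points for chromosome 17 and 17.98 points for chromosome 6. The chromosome 6 end had 60.9% in siRif1 and 51.8% in siCont, a shift of 8.52 points, and the chromosome 19 end 51.9% in siRif1 and 43.5% in siCont, a shift of 7.77 points. At chromosome 6, Far2, a fatty acyl-CoA reductase gene, was replicated in 30 of 45 siRif1 cells and 19 of 43 siCont cells, and Tmtc1, a relative of Tmtc4, in 32 of 45 siRif1 cells and 22 of 43 siCont cells.

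The remaining 13 ends had morula shifts between -8.50 points, at chromosome 15, and 7.24 points, at chromosome 18. Chromosomes 10, 5, 12, 14, 8, 4, 16 and 3 had -8.19, -6.73, -6.36, -5.33, -4.93, -1.84, -1.43 and -1.13 points. Chromosomes 1, 13 and 7 had 3.70, 4.201 and 4.26 points. The sign was kept under the 5 alternative settings at 10 of 19 ends, among them chromosomes 2, 9, 10, 11, 6 and 17.

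Shifts vary with timing across the genome, so each end bin was also set against bins outside the ends of like siCont timing at the other 2 stages. After subtracting the mean shift of those bins, the mean over ends was -0.792 points at the 4-cell stage (SD 6.29, 13 of 19 ends negative), 0.0883 points at the 8-cell stage (SD 6.63, 6 of 19 negative) and -4.13 points at the morula stage (SD 6.08, 15 of 19 negative). The morula value was negative in every one of the 13 alternative settings tried, from -8.27 to -0.891 points. It was not particular to the ends: the same quantity was -3.34 points between 3 and 5 Mb from the limit, -3.84 points between 5 and 10 Mb, and -2.88 points in the centromere-proximal 3 Mb.

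The ends differed in gene content, and ends with more genes tended to have lower shifts. The ends held 693 protein-coding genes, 11.96 per Mb against 8.44 per Mb over all used bins, with a median of 22 genes per end, 1 at chromosome 17 and 130 at chromosome 10. Over the 19 ends, gene number and centred share had r = 0.32 in siRif1 and r = 0.69 in siCont at the 4-cell stage. The 8-cell r was 0.040 in siRif1 and 0.51 in siCont, and the morula r was 0.55 in siRif1 and 0.64 in siCont. These values are no independent result, because state 1 was read as replicated from its link with gene-rich bins. Gene number and shift had r = -0.44, -0.63 and -0.56 at the 4-cell, 8-cell and morula stages, and -0.37, -0.83 and -0.55 without the ends of chromosomes 10 and 15, which are farthest from the median gene number. The 707 windows elsewhere gave r = -0.28, -0.63 and -0.53, so the relation was not peculiar to the ends. The points of each plot come from the same cells, neighbouring genes share bins, and genes are not independent.

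**Figure D3:**
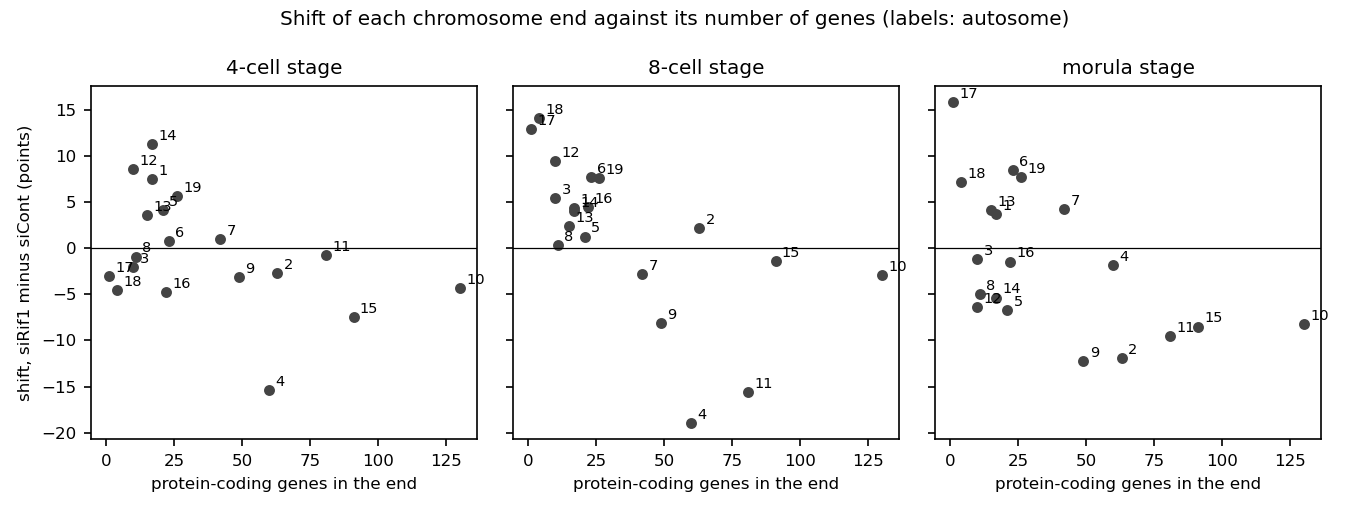
Shift (siRif1 minus siCont, percentage points, vertical axis) of each autosomal end against its number of protein-coding genes (horizontal axis) at the 3 stages, with each point labelled by its autosome. The ends with few genes lie above 0 at the 8-cell stage, where the ends of chromosomes 4, 9 and 11 lie lowest.

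The 9 ends with at least 23 genes (chromosomes 2, 4, 6, 7, 9, 10, 11, 15 and 19) had mean shifts of -2.91 points (SD 5.97), -3.56 points (SD 9.31) and -3.51 points (SD 8.39) at the 4-cell, 8-cell and morula stages. The 10 other ends had 1.99 points (SD 5.81), 5.90 points (SD 4.75) and 0.511 points (SD 7.27). At the 8-cell stage 6 of the 9 gene-rich ends and 0 of the 10 others were negative, but 6 and 3 with cells balanced over S phase, 7 and 2 in matched pairs, and 6 and 1 in cells with 20 to 80% of bins replicated. The 8-cell mean stayed lower in the gene-rich ends in these settings and on both other scales, while at the morula stage it was 1.48 points in the gene-rich ends and -2.71 points in the others on percentile ranks. In levels, the 9 gene-rich ends averaged -2.45 points in siRif1 and 1.11 points in siCont at the 8-cell stage, and the 10 others -4.01 points in siRif1 and -9.91 points in siCont. The gap in centred share between gene-rich and gene-poor ends was therefore smaller in siRif1 than in siCont at this stage.

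Of the 693 genes of the ends, 455 had a negative shift at the 4-cell stage (65.7%, against 59.6% of all 19410 measured genes). In 8-cell embryos 454 were negative (65.5%, against 71.9% of all genes), and at the morula stage 536 (77.3%, against 74.8%). Their median shifts were -2.99, -3.82 and -6.60 points, beside -2.31, -7.49 and -8.04 points over all genes. With median centring the negative shares were 74.2%, 57.1% and 67.5% of the end genes, against 68.4%, 64.4% and 64.7% of all genes. Counted by bins, 52.6%, 44.004% and 54.2% of the end bins were negative at the 3 stages, against 50.2, 47.9 and 50.9% of all used bins. Genes of the ends were thus more often negative than end bins, as was the case over the whole autosomes.

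Within an end, the last 0.5 Mb before the limit replicated latest on average. The limit was the last bin of the table at 7 ends. At the others it lay 500 to 1000 kb before that bin, and the stretch beyond it was not used. Its mean centred share was -15.5 points in siRif1 and -15.3 points in siCont at the 4-cell stage, -7.503 points in siRif1 and -13.9 points in siCont at the 8-cell stage, and -11.2 points in siRif1 and -14.0 points in siCont at the morula stage. Between 2 and 3 Mb from the limit the values were -7.55 points in siRif1 and -7.17 points in siCont at the 4-cell stage, -4.55 points in siRif1 and -2.37 points in siCont at the 8-cell stage, and 3.79 points in siRif1 and 7.38 points in siCont at the morula stage. Gene density was no lower next to the limit, with 13.5 protein-coding genes per Mb in the last 0.5 Mb and 9.77 per Mb between 2 and 3 Mb. The late last 0.5 Mb was thus seen in all 6 groups, and the gradient was steepest in siCont morulae.

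**Figure D4:**
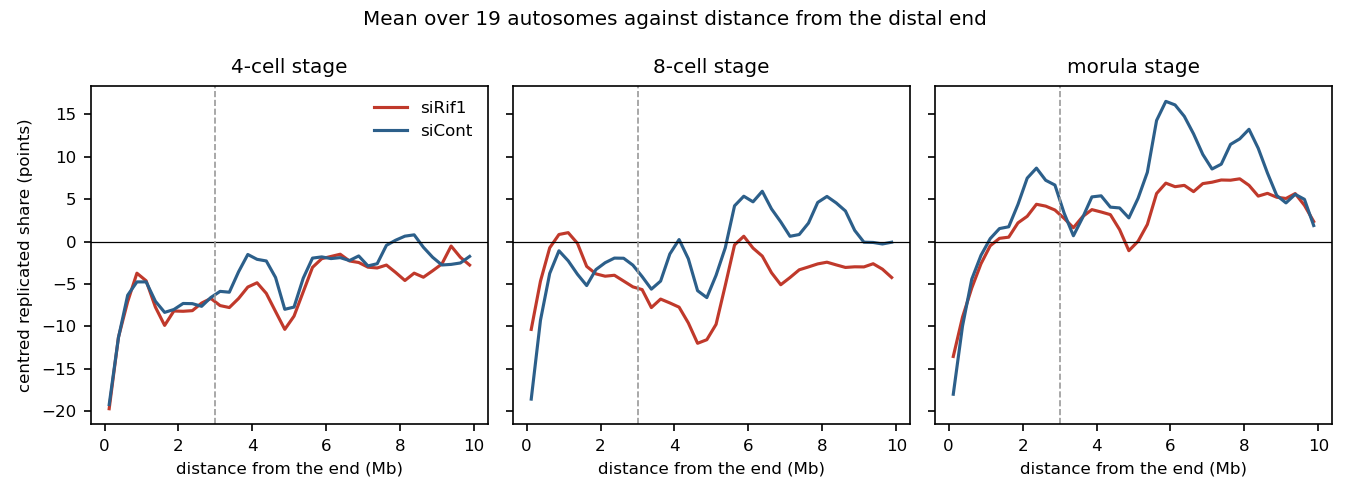
Mean centred replicated share over the 19 autosomes (percentage points, vertical axis) against distance from the distal limit (Mb, horizontal axis, steps of 0.25 Mb) for siRif1 in red and siCont in blue at the 3 stages, with a dashed line at 3 Mb. All 6 lines fall over the last 0.5 Mb, and at the 8-cell stage the siRif1 line stays above siCont there and below it beyond 3 Mb.

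The shift of the last 0.5 Mb was -0.223 points at the 4-cell stage (SD over ends 9.17), 6.41 points at the 8-cell stage (SD 12.4, 13 of 19 ends positive) and 2.75 points at the morula stage (SD 10.4, 12 of 19 positive). The 8-cell shift was 2.47 points between 0.5 and 1 Mb, 2.18 points between 1 and 2 Mb, -2.19 points between 2 and 3 Mb, -4.61 points between 3 and 5 Mb, and -5.81 points between 5 and 10 Mb. The mean difference between the last 1 Mb and the stretch from 2 to 3 Mb was 0.335 points at the 4-cell stage, 6.62 points at the 8-cell stage and 4.46 points at the morula stage. The 8-cell value was positive in all 9 alternative settings, from 5.09 to 8.02 points. The morula value turned to -1.41 points on percentile ranks. Against bins of like siCont timing, the shift of the last 0.5 Mb was -0.451, 1.07 and -3.10 points, so bins of like timing elsewhere had most of the 8-cell value.

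Calls at the limit were more uniform than elsewhere. In 97.2% of 5668 pairs of a cell and an end the last 5 bins all had the same state, against 91.5% of groups of 5 used bins elsewhere. At 7 ends (chromosomes 2, 3, 6, 7, 11, 16 and 19) the last used bin was the last bin of the table, and at 4 others no bin beyond the limit was measured in any group. At all of these the last 5 bins had the same state in every cell. How far this affects the values next to the limit was not tested.

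Few end bins had shifts of at least 30 points, and the count depended on the cells used. At the 4-cell stage 0 end bins were at least 30 points later in siRif1, against 0.0435% of all used bins, and 1 was at least 30 points earlier, against 0.0196%. In 8-cell embryos 6 end bins (0.518%) were later, against 1.06% of all used bins, and 10 (0.863%) were earlier, against 0.224%. At the morula stage 1 end bin (0.0863%) was later, against 0.461%, and 5 (0.431%) were earlier, against 0.608%. The count of 10 comes from 2 ends only, so it does not stand for 10 separate observations. With cells balanced over S phase, 35 end bins (3.02%) were later at the 8-cell stage, against 3.25% of all used bins, and 51 (4.40%) at the morula stage, against 1.60%. The end share of later morula bins was thus below that of all bins with all cells and above it with balanced cells.

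The 6 later bins of the 8-cell stage formed a run of 3 bins at chr4:155600001-155750000, with 7 genes and a shift of -30.5 points, and a run of 3 bins at chr11:120550001-120700000, with 13 genes and a mean shift of -32.2 points. The chromosome 4 run holds Cdk11b and, named here after its values were seen, Ssu72, an RNA polymerase II phosphatase gene. The chromosome 11 run holds P4hb and Aspscr1 and, also named after its values were seen, Sirt7, a sirtuin gene. The 10 earlier bins were the last 5 of chromosome 2, with a shift of 32.2 points and the predicted genes Gm14496 and Gm40035, and the last 5 of chromosome 6, with a shift of 32.8 points and Gm21814. Gm21814 was replicated in 25 of 50 siRif1 cells and 14 of 60 siCont cells at the 8-cell stage, but in 15 of 51 siRif1 cells and 15 of 49 siCont cells at the 4-cell stage. The 5 earlier bins of the morula stage were the last 5 of chromosome 19, with a shift of 34.7 points. They hold Csf2ra, which encodes a subunit of the GM-CSF receptor and was replicated in 21 of 45 siRif1 cells and 5 of 44 siCont cells. Without the last 5 bins of each end, an alternative added after the data were seen, no end bin was at least 30 points earlier at the 8-cell or morula stage.

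Single cells gave a similar picture of the level of the ends at the 4-cell and 8-cell stages, but not at the morula stage. Only cells with 20 to 80% of bins replicated were used for this, and in each the percent of replicated end bins was set against the percent over all bins of the same cell, which does not depend on centring. At the 4-cell stage the ends were ahead of the cell in 9 of 47 siRif1 cells (19.1%, exact 95% interval 9.15 to 33.3) and in 7 of 39 siCont cells (17.9%, 7.54 to 33.5). In 8-cell embryos they were ahead in 21 of 47 siRif1 cells (44.7%, 30.2 to 59.9) and in 19 of 54 siCont cells (35.2%, 22.7 to 49.4). At the morula stage they were ahead in 27 of 43 siRif1 cells (62.8%, 46.7 to 77.0) and in 21 of 42 siCont cells (50%, 34.2 to 65.8). The median difference per cell was 2.68 points in siRif1 and -0.225 points in siCont morulae. The mean centred share had the reverse order, with -0.983 points in siRif1 and 0.410 points in siCont. The shares of siRif1 and siCont overlap in their intervals at every stage. Cells of a group may come from the same embryo, which the intervals do not cover.

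**Figure D5:**
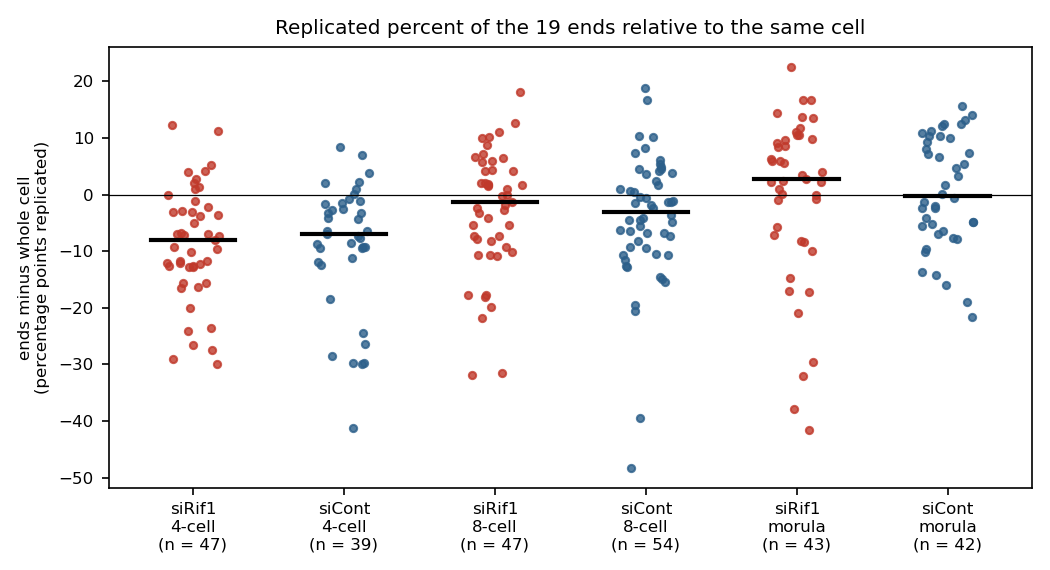
Percent of replicated end bins minus the percent of all replicated bins of the same cell (percentage points, vertical axis), for each cell with 20 to 80% of bins replicated in the 6 groups (horizontal axis, siRif1 in red and siCont in blue, n under each group), with black bars at the medians. The median lies at -7.98 points in siRif1 and -6.97 points in siCont at the 4-cell stage, and at 2.68 points in siRif1 and -0.225 points in siCont at the morula stage.

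For the last 0.5 Mb the counts were lower in every group. It was ahead of the cell in 8 of 47 siRif1 cells (17.0%, 7.65 to 30.8) and 6 of 39 siCont cells (15.4%, 5.86 to 30.5) at the 4-cell stage. At the 8-cell stage it was ahead in 13 of 47 siRif1 cells (27.7%, 15.6 to 42.6) and 7 of 54 siCont cells (12.96%, 5.37 to 24.9). At the morula stage it was ahead in 12 of 43 siRif1 cells (27.9%, 15.3 to 43.7) and 2 of 42 siCont cells (4.76%, 0.582 to 16.2). The siRif1 share was the higher at every stage, only slightly so at the 4-cell stage, and the intervals overlap at each. In cells with 40 to 60% of bins replicated, the median number of ends with more than 50% of bins replicated was 8 of 19 in siRif1 and 8 in siCont at the 4-cell stage, 8 in siRif1 and 8.5 in siCont at the 8-cell stage, and 11 in siRif1 and 9 in siCont at the morula stage. It ranged from 1 to 14 ends in siRif1 and from 4 to 13 in siCont at the morula stage.

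An end was seldom replicated as a block. Both states were present in 74.7% of pairs of a cell and an end in siRif1 and 73.0% in siCont at the 4-cell stage, 72.8% in siRif1 and 71.6% in siCont at the 8-cell stage, and 67.7% in siRif1 and 66.2% in siCont at the morula stage. Changes of state along the ends were about as frequent as elsewhere in the same cells. The 8-cell groups had 49.7 per 100 Mb of end and 49.2 per 100 Mb of the rest in siRif1, and 44.4 and 44.2 in siCont.

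Among gene groups, the imprinted genes of distal chromosome 7 lay entirely within an end, with all 18 listed members in 12 bins. The group includes H19 and Igf2, a growth factor gene expressed from the paternal copy, and Kcnq1ot1 and Cdkn1c, a noncoding RNA and a cell cycle inhibitor gene of the neighbouring domain. Of the 18, 12 were negative at the 4-cell stage, 17 at the 8-cell stage and 5 at the morula stage, with median shifts of -3.47, -5.28 and 0.523 points. Over all measured genes 59.6, 71.9 and 74.8% were negative at these stages, so the 4-cell count was near that of all genes. The 18 genes share 12 bins of a single chromosome. Igf2 was replicated in 17 of 51 siRif1 and 14 of 49 siCont cells at the 4-cell stage, 17 of 50 siRif1 and 25 of 59 siCont cells at the 8-cell stage, and 20 of 43 siRif1 and 21 of 44 siCont cells at the morula stage. Cdkn1c was replicated in 18 of 50 siRif1 and 28 of 59 siCont cells at the 8-cell stage. The lowest of its 8-cell shifts was -10.4 points, at Kcnq1, and none reached the mean of the low ends of chromosomes 4 and 11. States were not assigned to the parental copies.

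Olfactory receptor genes formed the second large group, with 34 of the 1023 measured members, all in 15 bins of the chromosome 10 end. They are expressed in sensory neurons and were late in every group, with median centred shares of -36.7 points in siRif1 and -34.3 points in siCont at the 4-cell stage, -22.6 points in siRif1 and -40.9 points in siCont at the 8-cell stage, and -25.5 points in siRif1 and -26.7 points in siCont at the morula stage. Their median shifts were -2.35, 15.6 and -1.55 points, and 29, 1 and 19 of the 34 were negative, against 59.6, 71.9 and 74.8% of all genes. The 34 genes lie side by side and are not separate observations. Olfr803, nearest the limit, was replicated in 8 of 49 siRif1 cells and 3 of 60 siCont cells at the 8-cell stage. The same end held 130 genes in all, and its stretch from 1 to 2 Mb was early: between 1 and 2 Mb from the limit the 8-cell share was 50.6% in siRif1 and 64.2% in siCont, a shift of -7.37 points. The chromosome 10 end thus combined a late array with a positive 8-cell shift and an early gene-rich stretch with a negative one.

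Of 352 measured zinc finger genes with Zfp symbols, 10 lay in the ends of 6 chromosomes, with median shifts of 1.45, 2.85 and -6.55 points at the 3 stages. None of the 186 measured vomeronasal receptor genes did. Of 25 genes of telomere maintenance, Rtel1 on chromosome 2 was the only member in an end. It encodes a helicase that unwinds telomeric loops, and its shifts at the 3 stages were -3.88, 2.18 and -10.9 points. Rtel1 was replicated in 25 of 51 siRif1 and 24 of 49 siCont cells at the 4-cell stage, 23 of 50 siRif1 and 30 of 60 siCont cells at the 8-cell stage, and 25 of 45 siRif1 and 29 of 44 siCont cells at the morula stage.

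Other genes named were the longest and the outermost of each end. Among the longest genes, Pard3, a cell polarity gene on chromosome 8, was replicated in 27 of 51 siRif1 and 23 of 49 siCont cells at the 4-cell stage, 25 of 50 siRif1 and 33 of 60 siCont cells at the 8-cell stage, and 29 of 45 siRif1 and 34 of 44 siCont cells at the morula stage. Dscam, a neuronal adhesion gene on chromosome 16, was at 19 of 51 siRif1 and 21 of 49 siCont cells, 22 of 50 siRif1 and 24 of 60 siCont cells, and 23 of 45 siRif1 and 20 of 42 siCont cells at the 3 stages. Cdh4, a cadherin gene on chromosome 2, was at 18 of 51 siRif1 and 13 of 49 siCont cells, 9 of 50 siRif1 and 19 of 60 siCont cells, and 22 of 45 siRif1 and 28 of 44 siCont cells. The largest shift in size among these 3 genes was that of Cdh4 at the morula stage, -15.3 points. Counts of cells are not centred, and the 8-cell shift of Pard3 was 1.18 points. Among the outermost genes, Macc1 on chromosome 12 was at 14 of 51 siRif1 and 5 of 49 siCont cells, 12 of 50 siRif1 and 6 of 60 siCont cells, and 8 of 45 siRif1 and 5 of 44 siCont cells. Ccr3, a chemokine receptor gene on chromosome 9, was at 22 of 51 siRif1 and 20 of 49 siCont cells, 20 of 50 siRif1 and 28 of 60 siCont cells, and 19 of 45 siRif1 and 20 of 44 siCont cells.

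Metrnl, a secreted factor gene at the chromosome 11 end, was among the 3 genes of the ends with the highest 4-cell shift. Its shift was -0.588 points at the 8-cell stage and -22.0 points at the morula stage. It was replicated in 32 of 50 siRif1 and 17 of 49 siCont cells at the 4-cell stage, 22 of 49 siRif1 and 31 of 60 siCont cells at the 8-cell stage, and 19 of 45 siRif1 and 28 of 44 siCont cells at the morula stage. Tm9sf2, a transmembrane protein gene at the inner side of the chromosome 14 end, was at 37 of 51 siRif1 and 25 of 49 siCont cells, 27 of 50 siRif1 and 41 of 60 siCont cells, and 27 of 45 siRif1 and 38 of 44 siCont cells. By share, both genes were thus replicated in more siRif1 than siCont cells at the 4-cell stage. At the 8-cell and morula stages they were replicated in fewer. These shares are not centred, and the 8-cell difference of Metrnl is mostly that between the group means. Its 8-cell shift is smaller in size than the 2.63 points that median centring adds at that stage.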

How the data were processed

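The deposited tables, 1 per group, hold for each cell and 50-kb bin a fraction that takes only the values 0 and 1, or NA. The submitters' processing notes name the build GRCm38 and the tools R 4.2.3, bedtools, Picard, SAMtools and Bowtie2 2.5.1, with no roles. The step from reads to states, and the choice of cells, are not given in the sources used here, and read depth is unknown.

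From these states the replicated shares, centred shares, shifts, like-timing differences (20 classes), distances and per-cell measures were computed with Python 3.11.15, numpy 2.4.6, pandas 2.3.3 and scipy 1.17.1, and the code was tested on simulated data. Precision is set by the number of cells. Cells were grouped by their titles and treatment labels. Each group counted as 1 sample, so no test was run. Genes were placed by their midpoint in a used bin, with the RefSeq table of GRCm38.p6, and promoters come from RefSeq too.

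Genes were named by rule: per end the longest and the outermost protein-coding gene, per stage the 3 lowest and 3 highest (1 per bin), and the members of 5 lists. The ends and the lists were chosen with earlier results of these data known. Alternatives changed the cells used, the minimum of measured cells, the length of the ends, the centring, the scale, the weighting and the timing classes, and left out each autosome in turn. Chromosomes other than the autosomes were not analysed here.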

Additional observations from a re-analysis of the deposited data

How the results depend on the processing

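Of 781 alternative values for 32 results, 15 moved by more than a set margin, and 766 moved by less. The margin was a 95% counting interval or, for a count, a factor of 1.5. The interval of the cells is a wide margin. For the shares of end bins at least 30 points later or earlier, the interval counted bins. That margin is narrow, because neighbouring bins are not independent, so moves in these shares carry little weight. Small means had no fixed sign: leaving aside the left-out autosomes, the mean shift turned in sign in 4 settings at the 4-cell, 3 at the 8-cell and 2 at the morula stage, and the 8-cell difference to bins of like timing, 0.0883 points, in 7. The share of end bins at least 30 points later at the 8-cell stage was 3.02% with cells balanced over S phase, 2.59% in matched pairs of siRif1 and siCont cells and 1.98% with 5 Mb ends, against 3.25%, 2.88% and 1.06% of all used bins. At the morula stage it was 4.40% with balanced cells, against 1.60%. The share at least 30 points earlier was, at the 4-cell stage, 0.345% in cells with 20 to 80% of bins replicated and 0.431% in matched pairs, against 0.0934% and 0.213%. At the 8-cell stage it was 0% with balanced cells, 0% without the last 5 bins of each end (chosen after seeing the data) and 2.51% with 1 Mb ends, and at the morula stage 1.25% with 1 Mb ends. With 1 Mb ends, 7 ends were negative at the morula stage, and the ends were ahead in 14 siRif1 cells at the 4-cell stage and in 11 siCont cells at the morula stage. For siCont 4-cell embryos the ends were ahead in 12 cells when all cells were used and in 4 cells without chromosome 3. The causes were not tested. Leaving out each autosome in turn gave mean shifts from -0.812 to 0.249 points at the 4-cell stage, 0.636 to 2.36 points at the 8-cell stage and -2.48 to -0.798 points at the morula stage. The mean 4-cell shift was 0.249 points without chromosome 4. No paired analysis was possible because each group counts as 1 sample and the numbers in the titles only name cells. The number of cells, 44 to 60 per group, limits every share, and embryo and injection effects cannot be told apart from treatment.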

Other observations

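Beside the 693 protein-coding genes, the annotation placed 391 lncRNA genes, 157 pseudogenes, 49 miRNA genes, 27 snRNA genes and 23 snoRNA genes in the ends. The siRif1 and siCont shares of the end bins were correlated at r = 0.79, 0.70 and 0.88 at the 4-cell, 8-cell and morula stages over 1159 bins, beside 0.79, 0.78 and 0.89 over all used bins. These are descriptions, since the bins share cells and adjoining bins often share a state.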
